A study of Mus musculus with 18 samples.

Results

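The genes described here encode superoxide dismutases, catalase, peroxidases and the reductase that recycles glutathione. They are the 10 rows of the deposited table whose gene symbol is Sod1, Sod2, Cat, Gpx1, Gpx4, Prdx1, Prdx2, Prdx5, Prdx6 or Gsr, out of 16909 genes in all, and all 10 had enough counts to be tested. Mouse bone marrow macrophages were profiled by bulk RNA sequencing in 18 libraries. UVABs and STSABs libraries (n = 5 each) came from cells given apoptotic bodies, the membrane-bound remnants of dying cells, made from cells labelled hucMSC by induction with UV or with STS. Both are named in the design text as anti-inflammatory treatments. LPS libraries (n = 5) were the positive control for inflammation, made with lipopolysaccharide, a bacterial cell-wall component sensed by Toll-like receptor 4, and Con libraries (n = 3) were mock-treated. The last 2 UVABs libraries, replicates 4 and 5, are spelled UVAB, and the design text treats both spellings as 1 group. The labels state no dose, time, mouse strain or age. They also do not say whether cells given apoptotic bodies received LPS as well, or whether libraries of a group came from separate cultures or animals, so the p-values cover the spread among these 18 libraries and no more, and that spread may be technical.

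Superoxide forms when the phagocyte NADPH oxidase or the mitochondrial respiratory chain passes an electron to oxygen. Superoxide dismutases turn it into hydrogen peroxide, with the copper- and zinc-containing Sod1 in the cytosol and the manganese-containing Sod2 in the mitochondrial matrix. Catalase, the product of Cat, breaks hydrogen peroxide down in peroxisomes. Glutathione peroxidases reduce peroxides at the expense of glutathione, which glutathione reductase (Gsr) restores with NADPH, and most peroxiredoxins do so with thioredoxin. In macrophages these enzymes limit the damage that the cell's own oxidants do, and hydrogen peroxide is also a signal.

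The promoters of Sod2 and Prdx1, the members with the largest increases in LPS libraries, are shown first. Both sequences are the 250 bases before the RefSeq start of transcription in the build GRCm38.p6, on the + strand, at chr17:13007589-13007838 for Sod2 and chr4:116685349-116685598 for Prdx1. Capitals mark matches to the NF-kB consensus or to the core of the antioxidant response element, TGACNNNGC, which NRF2 binds with a small MAF protein.
Sod2: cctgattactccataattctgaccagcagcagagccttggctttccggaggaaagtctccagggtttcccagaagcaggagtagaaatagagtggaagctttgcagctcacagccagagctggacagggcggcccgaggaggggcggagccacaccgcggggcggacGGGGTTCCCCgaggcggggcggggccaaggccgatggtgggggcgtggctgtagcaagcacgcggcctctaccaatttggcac
Prdx1: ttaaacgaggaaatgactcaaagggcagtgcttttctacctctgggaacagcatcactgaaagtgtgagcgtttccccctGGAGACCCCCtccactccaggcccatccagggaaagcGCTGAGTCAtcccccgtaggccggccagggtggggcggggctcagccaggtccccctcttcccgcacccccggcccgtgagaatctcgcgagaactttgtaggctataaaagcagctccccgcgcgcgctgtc
The Sod2 window has an NF-kB consensus match from 83 to 74 bases before the start. The Prdx1 window has an NF-kB consensus match 170 to 161 bases before the start and an antioxidant response element core 133 to 125 bases before it, both read on the other strand, and the 2 do not overlap. Both strands were searched in 11 promoters of the 8 members that RefSeq's table holds, which include 4 start sites of Gpx4. The NF-kB consensus, GGGRNNYYCC (R is A or G, Y is C or T, N is any base), was matched in 4 members, Sod2, Cat, Gpx1 and Prdx1. The antioxidant response element core was matched in 2, Sod1 and Prdx1. Of the 32851 mouse promoters of that length, 7.25% held the first and 10.2% the second. These shares are per promoter, while the member counts are per gene. Cat and Gpx1, which fell in LPS libraries, hold the same kind of match as Sod2, which rose. A match is only a run of letters in this window.

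Gpx1 and Gpx4 are selenoproteins. The windows below show the in-frame TGA, in capitals, that the ribosome reads as selenocysteine, with 30 bases on either side, in the coding strand of GENCODE transcripts of GRCm38. For each gene the transcript with the longest complete reading frame was taken, and codon numbers hold for that transcript only. The TGA is codon 47 of 201 in Gpx1, on chromosome 9, and codon 129 of 253 in Gpx4, on chromosome 10. No in-frame stop was found in the coding sequences of the other 8 members.
Gpx1: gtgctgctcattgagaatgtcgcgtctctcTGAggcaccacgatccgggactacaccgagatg
Gpx4: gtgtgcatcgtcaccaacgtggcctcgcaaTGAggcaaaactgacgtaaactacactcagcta
How alike related members are bears on whether their reads could be confused. Prdx1 and Prdx2 were 70.0% identical with a longest shared run of 14 bases, Gpx1 and Gpx4 were 59.5% identical, and Sod1 and Sod2 were 57.6% identical. The longest run shared by any pair compared was 16 bases, in Prdx5 and Prdx6, which were 51.1% identical. Only mouse coding sequences were compared.

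Library totals lay between 17588357 and 18675283 estimated counts. The lowest count of any member in any library was 820, for which counting error alone is 3.49%. Levels below are CPM, counts relative to the TMM-scaled size of each library, as mean ± SD with n = 5 libraries (Con n = 3), and each change is a log2 fold change ± SE in an edgeR quasi-likelihood fit over all 18 libraries. "Rose" and "fell" are used where the Benjamini-Hochberg adjusted p of that test, over all 12465 genes tested, was under 0.05. The 10 members together took 0.395% to 0.493% of all counts in UVABs libraries, 0.386% to 0.425% in STSABs libraries, 0.466% to 0.510% in LPS libraries and 0.322% to 0.331% in Con libraries. In bulk RNA, fewer cells of a type and less RNA per cell cannot be told apart. Macrophage markers summed to 10400 to 11900 CPM in UVABs libraries and 9730 to 10900 in STSABs libraries. In LPS libraries their sum was 12300 to 13600 CPM, and in Con libraries 10600 to 11500. Most of each sum was Lyz2, which averaged 7410, 6970, 9550 and 8000 CPM in the same order, so the sums follow mainly that gene. Replicate 2 of both apoptotic body groups stood apart from the other libraries of its group over all genes, so its distance in single members is not particular to them.

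LPS against Con asks what the inflammatory stimulus did to the enzymes. Sod2, Prdx1, Prdx5, Gsr, Prdx6 and Prdx2 rose, Cat, Gpx1 and Gpx4 fell, and Sod1 did not pass the test. That is 9 of 10 members called, where 83% of all genes tested were called (40% higher and 43% lower), so a call by itself sets the members apart little in this comparison, and the sizes and directions carry the information. The LPS and Con libraries did not overlap in the same 9 members, against 80% of all genes. The members' median log2 fold change was 0.79, and that of all genes tested was -0.03.

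Against LPS, the apoptotic body groups showed a split pattern. In UVABs libraries 5 members (Sod2, Cat, Gpx1, Prdx1 and Gsr) fell and 4 (Sod1, Gpx4, Prdx2 and Prdx5) rose, and in STSABs libraries the same 5 fell and 3 (Sod1, Gpx4 and Prdx2) rose. Over all genes tested 57.4% were called in UVABs against LPS (28.6% higher and 28.8% lower) and 57.4% in STSABs against LPS (28.4% higher and 29% lower). UVABs libraries did not overlap with LPS libraries in 6 members, against 42.3% of genes, and STSABs libraries in 5, against 42.5%. These comparisons share the LPS libraries, so their likeness is not independent evidence. Neutrophil markers moved in the same comparisons: 8 of 8 were called higher in each apoptotic body group than in LPS, 6 of 8 higher and 1 lower in LPS than in Con. Their summed level was 3180 to 4200 CPM in UVABs libraries, 3250 to 4710 in STSABs libraries, 1810 to 2520 in LPS libraries and 1180 to 1480 in Con libraries, and none of the 8 was at 0 (Ly6g, which marks mature neutrophils, averaged 7.70, 7.80, 4.78 and 3.26 CPM in the same order). Stromal markers summed to 21.5 to 26.5 CPM in UVABs libraries, 19.4 to 33.6 in STSABs libraries, 18.2 to 22.1 in LPS libraries and 9.08 to 9.87 in Con libraries, most of it Thy1. Of 5 tested, 1 (Thy1) was called higher in each apoptotic body group than in LPS. Lower than in LPS were 1 (Lum) in UVABs and 2 (Lum and Pdgfrb) in STSABs. In LPS against Con 2 were called higher and 0 lower. Dendritic cell markers summed to 2740 to 3390 CPM in UVABs libraries and 2770 to 3360 in STSABs libraries. In LPS libraries their sum was 2450 to 2740 CPM and in Con libraries 171 to 192, most of it Ccr7. Of 4 tested, 2 were called higher, 1 (Clec9a) lower and 1 (Flt3) did not pass in LPS against Con. In each apoptotic body group against LPS 3 were called higher and 0 lower. Mast cell and basophil markers summed to 61.7 to 96.4 CPM in UVABs libraries, 71.1 to 98.5 in STSABs libraries, 47.5 to 73.4 in LPS libraries and 61 to 71.3 in Con libraries, with 3 of 4 tested called higher and 1 (Kit) lower in each apoptotic body group than in LPS. Of 8 macrophage markers, 2 were called higher and 4 lower in each apoptotic body group than in LPS, and 4 higher and 3 lower in LPS than in Con. In LPS against Con, Csf1r, the receptor for macrophage colony-stimulating factor, was 3.1-fold lower, while Cd14 was 4.84-fold, Mertk 4.41-fold and Fcgr1 2.91-fold higher. B cell markers summed to at most 7.18 CPM and T and NK cell markers to at most 8.96 CPM in any library, with 1 of 4 B cell markers called lower and 0 of 3 T and NK cell markers called in each apoptotic body group against LPS. The part of these cell types in the members' changes was not tested.

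**Figure D1:**
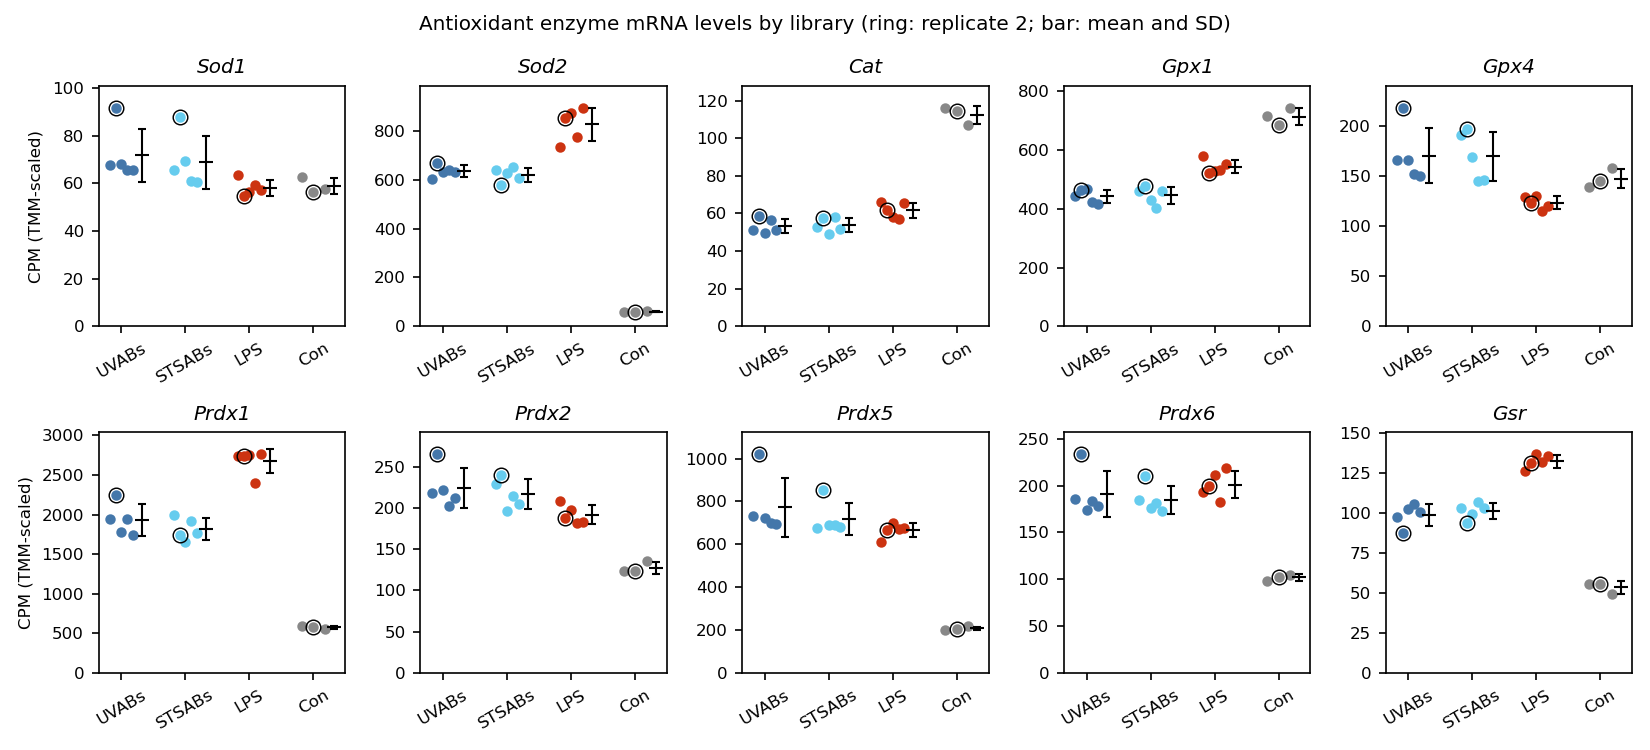
Level of each member in each library, in CPM after TMM scaling (vertical axis from 0), by group; points are libraries, rings mark replicate 2, and the bar beside each group is the mean with its SD. Sod2 is far above the 3 Con libraries in all 15 others, Cat and Gpx1 are below them, and replicate 2 of UVABs stands above the other UVABs libraries in Sod1, Gpx4, Prdx5 and Prdx6.

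Sod2, the mitochondrial dismutase, changed most. It had 605, 670, 631, 640 and 631 CPM in UVABs libraries, 638, 578, 628, 651 and 608 in STSABs libraries, 735, 855, 874, 776 and 895 in LPS libraries, and 58.5, 58.8 and 60.6 in Con libraries. The LPS libraries lie above every apoptotic body library, and all treated libraries lie far above Con. In LPS against Con it rose 13.9-fold (log2 fold change 3.80 ± 0.07; edgeR quasi-likelihood test, Benjamini-Hochberg adjusted p = 8.93e-22). Against LPS it fell by 23.2% in UVABs libraries (-0.38 ± 0.05, edgeR adjusted p = 2.7e-06) and fell by 24.9% in STSABs libraries (-0.41 ± 0.05, edgeR adjusted p = 8.81e-07). It stayed 10.7-fold above Con in UVABs libraries and 10.5-fold above Con in STSABs libraries (3.42 ± 0.07 and 3.39 ± 0.07).

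Sod1, the cytosolic dismutase, did not follow Sod2. It had 67.7, 91.8, 68.4, 65.7 and 65.6 CPM in UVABs libraries, 65.6, 87.8, 69.7, 61.0 and 60.7 in STSABs libraries, 63.5, 54.7, 56.3, 59.4 and 57.4 in LPS libraries, and 62.8, 56.4 and 57.6 in Con libraries. LPS and Con libraries overlapped, with a log2 fold change of -0.02 ± 0.11 (edgeR adjusted p = 0.89), and replicate 2 was the highest library in both apoptotic body groups. In UVABs libraries Sod1 rose against LPS (0.30 ± 0.10, edgeR adjusted p = 0.0105), with every UVABs library above every LPS library, and against Con (0.29 ± 0.11, edgeR adjusted p = 0.021). The call against Con was lost without UVABs replicate 2 (0.18, edgeR adjusted p = 0.0704), Con replicate 2 or Con replicate 3. In STSABs libraries it rose against LPS by 0.24 ± 0.10 (edgeR adjusted p = 0.036), a call lost on leaving out any of 6 libraries (LPS replicates 2 to 5, STSABs replicates 2 and 3), down to 0.14 without STSABs replicate 2. Against Con its STSABs value was 0.23 ± 0.11 (edgeR adjusted p = 0.0621), a side of the threshold that 6 of 12 other settings changed. It was called higher with DESeq2 size factors, the DESeq2 test, the replicate block, replicates 1 to 3 only and a term for replicates 4 and 5 (0.25 to 0.34), and lower with library totals alone (-0.47). Leaving out STSABs replicate 4 or 5 or UVABs replicate 2 also gave a call, at 0.22 to 0.27. With replicates 4 and 5 only, the log2 fold change of Sod1 in STSABs against LPS was 0.06.

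Counted within a library, where no scaling factor enters, there were 8.96 ± 0.98 Sod2 counts per Sod1 count in UVABs libraries, 9.20 ± 1.58 in STSABs libraries, 14.3 ± 1.87 in LPS libraries and 1.01 ± 0.07 in Con libraries. The ranges of the LPS and Con groups do not touch those of any other group, since the lowest LPS library had 11.6, the highest UVABs library 9.73 and the highest STSABs library 10.7. These ratios are of counts, not of molecules per length, and serve only to compare groups.

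Cat, the peroxisomal catalase, fell in every treated group. It had 51.0, 58.5, 49.5, 56.3 and 51.1 CPM in UVABs libraries, 52.6, 57.6, 49.1, 58.2 and 51.6 in STSABs libraries, 65.9, 62.0, 58.2, 57.2 and 65.4 in LPS libraries, and 116, 114 and 107 in Con libraries. The Con libraries are well above all others, while the apoptotic body groups overlap with LPS at its low end. In LPS against Con it fell by 45.1% (-0.86 ± 0.07, edgeR adjusted p = 5.43e-11). Against LPS it fell by 13.8% in UVABs libraries (-0.21 ± 0.06, edgeR adjusted p = 0.0049) and fell by 12.8% in STSABs libraries (-0.20 ± 0.06, edgeR adjusted p = 0.00828). With replicates 4 and 5 only, the values were -0.19 and -0.16 and neither passed (edgeR adjusted p = 0.0784 and 0.137). Against Con, Cat fell by 52.6% in UVABs libraries and fell by 52.1% in STSABs libraries.

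Gpx1, the most widely expressed glutathione peroxidase, fell in the same order. It had 442, 463, 467, 423 and 417 CPM in UVABs libraries, 461, 477, 429, 403 and 460 in STSABs libraries, 579, 524, 530, 533 and 553 in LPS libraries, and 715, 684 and 744 in Con libraries. Con, LPS and the apoptotic body libraries form 3 separate bands. It fell by 23.9% in LPS against Con (-0.39 ± 0.06, edgeR adjusted p = 1.91e-06), fell by 18.6% in UVABs against LPS (-0.30 ± 0.05, edgeR adjusted p = 4.14e-05) and fell by 18% in STSABs against LPS (-0.29 ± 0.05, edgeR adjusted p = 6.36e-05). Against Con it fell by 38.1% in UVABs libraries and fell by 37.6% in STSABs libraries.

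Gpx4 reduces lipid hydroperoxides in membranes and is the enzyme that holds back ferroptosis, a form of death by lipid peroxidation. It had 166, 219, 167, 153 and 150 CPM in UVABs libraries, 192, 198, 170, 145 and 147 in STSABs libraries, 129, 123, 130, 115 and 121 in LPS libraries, and 140, 145 and 159 in Con libraries. All apoptotic body libraries lie above all LPS libraries, and replicates 4 and 5 are the lowest in both apoptotic body groups. Against LPS it rose by 38% in UVABs libraries (0.47 ± 0.09, edgeR adjusted p = 0.000246) and by 37.4% in STSABs libraries (0.46 ± 0.09, edgeR adjusted p = 0.00028), and the log2 fold change stayed between 0.31 and 0.55 in the other settings tried. Against Con the values were 0.21 ± 0.11 in UVABs libraries and 0.20 ± 0.11 in STSABs libraries, and neither passed (edgeR adjusted p = 0.0789 and 0.088). In 4 of 12 other settings each of these was called, higher with the replicate block, replicates 1 to 3 only or a term for replicates 4 and 5 (0.29 to 0.34) and lower with library totals alone (-0.50 in UVABs and -0.49 in STSABs). Leaving out 1 library gave a call higher for UVABs replicate 4 or 5 in UVABs libraries and for STSABs replicate 4 or 5 or UVABs replicate 2 in STSABs libraries (0.20 to 0.25).

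The decrease of Gpx4 in LPS against Con (-0.26 ± 0.11, edgeR adjusted p = 0.0326) was lost in several settings. It did not pass without Con replicate 2 (-0.27, edgeR adjusted p = 0.0556), Con replicate 3 (-0.20, edgeR adjusted p = 0.137), LPS replicate 4 (-0.23, edgeR adjusted p = 0.0647) or LPS replicate 5 (-0.25, edgeR adjusted p = 0.0517). With replicates 1 to 3 only it was -0.22 (edgeR adjusted p = 0.0538), and with a term for replicates 4 and 5 it was -0.16 (edgeR adjusted p = 0.0863).

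The 2 selenoenzymes moved in opposite directions in the apoptotic body groups against LPS. The ratio of Gpx4 to Gpx1 counts in a library was 0.385 ± 0.049 in UVABs libraries, 0.381 ± 0.041 in STSABs libraries, 0.228 ± 0.012 in LPS libraries and 0.207 ± 0.010 in Con libraries. Every apoptotic body library, down to 0.319, was above every LPS library, up to 0.246, while the ranges of LPS and Con libraries were close, 0.217 to 0.246 and 0.195 to 0.213.

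**Figure D2:**
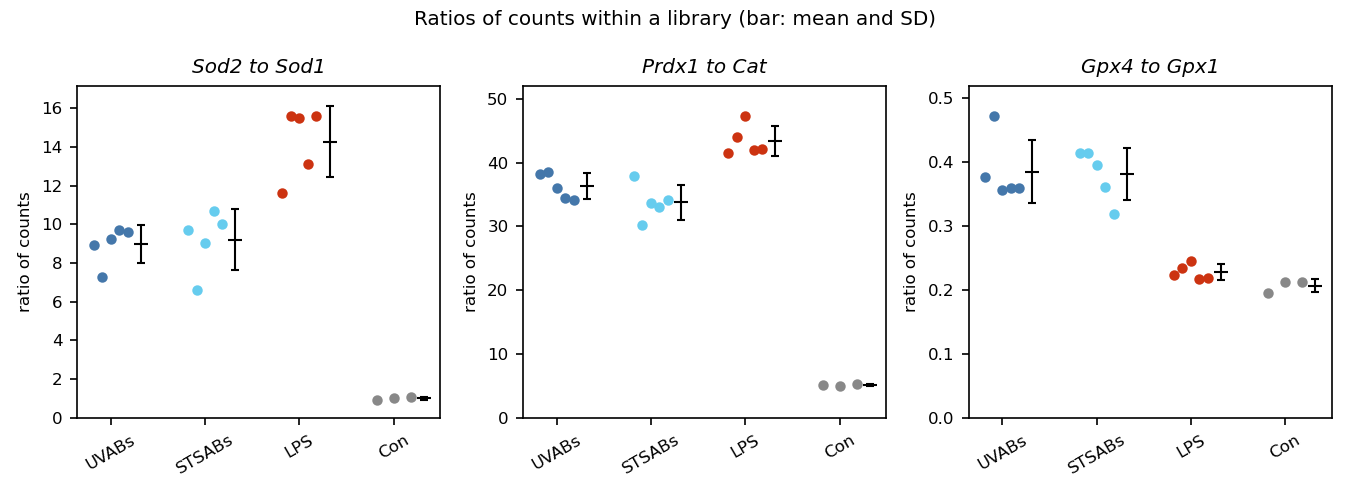
Ratios of estimated counts within each library (vertical axes from 0), by group: Sod2 to Sod1, Prdx1 to Cat and Gpx4 to Gpx1; points are libraries and the bar is the mean with its SD. The Sod2 to Sod1 ratio averages 14.3 in LPS libraries and 1.01 in Con libraries, and the Gpx4 to Gpx1 ratio is at least 0.319 in every apoptotic body library and at most 0.246 in the others.

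Peroxiredoxins reduce peroxides through a reactive cysteine. Prdx1, a cytosolic form and a known NRF2 target, had 1947, 2253, 1784, 1942 and 1747 CPM in UVABs libraries, 1992, 1743, 1655, 1923 and 1767 in STSABs libraries, 2740, 2736, 2752, 2399 and 2761 in LPS libraries, and 593, 572 and 559 in Con libraries. No LPS library overlaps with an apoptotic body library, although LPS replicate 4 (2399) and UVABs replicate 2 (2253) come close. It rose 4.66-fold in LPS against Con (2.22 ± 0.08, edgeR adjusted p = 1.29e-16). Against LPS it fell by 27.8% in UVABs libraries (-0.47 ± 0.07, edgeR adjusted p = 3.34e-06) and fell by 32.2% in STSABs libraries (-0.56 ± 0.07, edgeR adjusted p = 3.04e-07), and against Con it was 3.37-fold and 3.16-fold higher. Per count of Cat there were 36.3 ± 2.01 Prdx1 counts in UVABs libraries, 33.8 ± 2.73 in STSABs libraries, 43.4 ± 2.36 in LPS libraries and 5.11 ± 0.11 in Con libraries.

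Prdx5, found in mitochondria, peroxisomes and the cytosol, rose in LPS libraries and stayed up. It had 730, 1020, 721, 699 and 696 CPM in UVABs libraries, 677, 854, 688, 689 and 683 in STSABs libraries, 612, 667, 700, 671 and 676 in LPS libraries, and 201, 206 and 217 in Con libraries. Apart from replicate 2 of each apoptotic body group, the treated libraries lie between 612 and 730. The increase over Con was 3.72-fold in UVABs libraries (1.90 ± 0.11), 3.46-fold in STSABs libraries (1.79 ± 0.11) and 3.20-fold in LPS libraries (1.68 ± 0.11), with edgeR adjusted p = 3.29e-13, 8.52e-13 and 2.41e-12 in that order. Against LPS the UVABs value of 0.22 ± 0.09 passed (edgeR adjusted p = 0.0391) and the STSABs value of 0.11 ± 0.09 did not (edgeR adjusted p = 0.291). The UVABs call was lost on leaving out any of 5 libraries (LPS replicates 1, 2, 4 and 5, and UVABs replicate 2), and without UVABs replicate 2 the value was 0.10 (edgeR adjusted p = 0.179). With replicates 4 and 5 only it was 0.05.

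Prdx2, another cytosolic form that is abundant in red blood cells, had 203 to 265 CPM in UVABs libraries, 197 to 241 in STSABs libraries, 182 to 209 in LPS libraries and 123 to 135 in Con libraries. It rose by 51.1% in LPS against Con (0.60 ± 0.08, edgeR adjusted p = 4.37e-07), and by 16.7% in UVABs against LPS (0.22 ± 0.07, edgeR adjusted p = 0.00757) and 13% in STSABs against LPS (0.18 ± 0.07, edgeR adjusted p = 0.0307) with overlapping libraries. The STSABs call was lost on leaving out any of 5 libraries (LPS replicates 2, 4 and 5, STSABs replicates 1 and 2), down to 0.14 without STSABs replicate 2, and with replicates 1 to 3 only (0.17, edgeR adjusted p = 0.136). Erythroid markers summed to 9.52 to 14.8 CPM in UVABs libraries, 12.2 to 14.5 in STSABs libraries, 7.35 to 11.1 in LPS libraries and 3 to 5.2 in Con libraries, almost all of it Hbb-bt, with Hbb-bs and Alas2 at or near 0 in every group. Prdx2 shares 5.67% of its exon bases with Junb and 5.8% with Rnaseh2a on the opposite strand. The library kit marks strand, but the strand setting of the counting is not given, so whether reads of these genes were kept apart there is not known. Junb averaged 605 CPM in UVABs libraries, 600 in STSABs libraries, 482 in LPS libraries and 153 in Con libraries, the same direction as Prdx2. Rnaseh2a averaged 21.34, 20.25, 18.61 and 28.57 CPM in the same order, and was lower in LPS than in Con libraries, unlike Prdx2. The part of either gene in the Prdx2 values was not tested. Prdx5 likewise shares 19.1% of its exon bases with Trmt112, which averaged 28.3, 27.8, 28.8 and 33.1 CPM in the same order of groups and was lower in LPS than in Con libraries.

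Prdx6, which also has phospholipase activity and uses glutathione, had 174 to 234 CPM in UVABs libraries, 173 to 211 in STSABs libraries, 183 to 219 in LPS libraries and 98.1 to 105 in Con libraries. It rose by 97.5% in LPS against Con (0.98 ± 0.09, edgeR adjusted p = 5.05e-10). Against LPS it did not pass in UVABs libraries (-0.07 ± 0.07, edgeR adjusted p = 0.395) or STSABs libraries (-0.12 ± 0.07, edgeR adjusted p = 0.16). Without replicate 2 of the group tested, it was called lower in both, at -0.16 in UVABs libraries (edgeR adjusted p = 0.0252) and -0.17 in STSABs libraries (edgeR adjusted p = 0.0422).

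Gsr, the reductase that returns oxidised glutathione to its reduced form, had 97.1, 87.3, 102, 105 and 101 CPM in UVABs libraries, 103, 93.6, 99.4, 107 and 103 in STSABs libraries, 126, 131, 137, 132 and 135 in LPS libraries, and 55.8, 55.3 and 49.0 in Con libraries. The apoptotic body groups lie between LPS and Con with no overlap on either side. It rose 2.48-fold in LPS against Con (1.31 ± 0.06, edgeR adjusted p = 1.61e-14) and fell against LPS by 25.5% in UVABs libraries (-0.42 ± 0.05, edgeR adjusted p = 7.36e-07) and fell by 23.4% in STSABs libraries (-0.38 ± 0.05, edgeR adjusted p = 2.57e-06). Per count of Gpx1, the peroxidase it serves, there were 0.223 ± 0.024 Gsr counts in UVABs libraries, 0.228 ± 0.024 in STSABs libraries, 0.244 ± 0.015 in LPS libraries and 0.075 ± 0.008 in Con libraries.

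**Figure D3:**
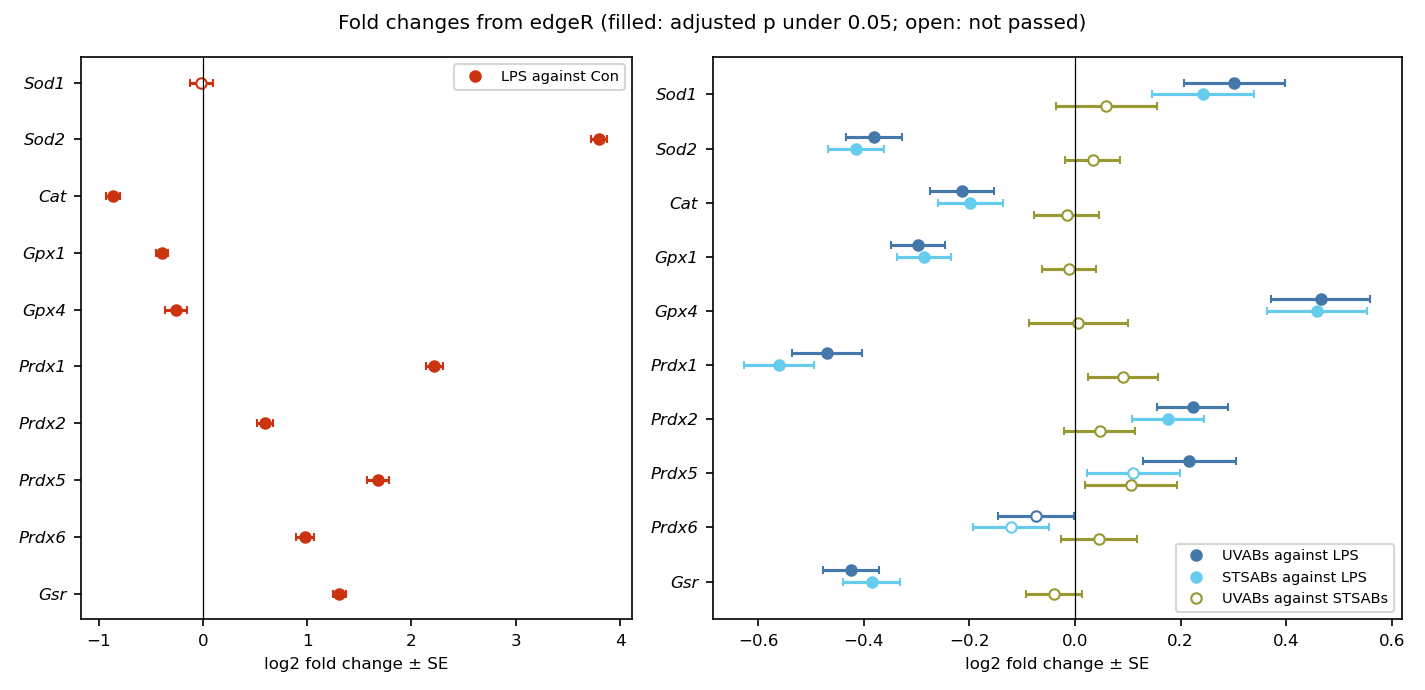
Log2 fold change ± SE of each member from edgeR's quasi-likelihood fit, for LPS against Con on the left and for UVABs against LPS, STSABs against LPS and UVABs against STSABs on the right; filled points have an adjusted p under 0.05. Sod2 (3.80) and Prdx1 (2.22) lead on the left, Gpx4 is farthest to the right of 0 and Prdx1 farthest to the left in the comparisons of the apoptotic body groups with LPS, and no member passed in UVABs against STSABs.

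UVABs against STSABs asks whether the way the apoptotic bodies were induced mattered. No member passed the edgeR quasi-likelihood test, 0 were under an unadjusted p of 0.05, and the percentage called over all 12465 genes was 0%, with 198 genes (1.59%) under an unadjusted p of 0.05 and 0 calls by DESeq2 or limma-voom. The members' log2 fold changes ran from -0.04 (Gsr) to 0.11 (Prdx5). In that fit, which does not pair libraries, the 95% intervals of the fold change were widest for Sod1 (0.908 to 1.2), Gpx4 (0.878 to 1.15) and Prdx5 (0.949 to 1.22), and for Sod2 the interval was 0.949 to 1.1. Deviations of same-numbered libraries from their group means correlated at 0.116 to 0.54, the highest for replicate 2, and no label says what a number shares. A fit of both groups with the replicate block, chosen after seeing the data, gave narrower intervals. They were 1.02 to 1.12 for Prdx5, 0.998 to 1.13 for Prdx1, 0.988 to 1.1 for Sod1 and 0.946 to 1.06 for Gpx4, and hold only if the numbers pair the libraries. Prdx5 was higher in UVABs than in STSABs in 5 of 5 same-numbered pairs. Its log2 fold change in the fit with the block was 0.09 ± 0.03 (edgeR adjusted p = 0.997), and it was the 1 member under an unadjusted p of 0.05, as were 3.9% of the 11732 genes tested there, with 0 called. In the fit that does not pair libraries, leaving out 1 library moved the Prdx5 value between -0.01 (without UVABs replicate 2) and 0.175. Settings other than leaving out a library kept it between 0.03 and 0.15. The other members were higher in UVABs in 1 (Gsr) to 4 (Sod1 and Prdx6) of the 5 pairs. A missed threshold does not show that both kinds of apoptotic body act alike. The 2 groups' libraries overlapped in all 10 members, and were apart in 0.345% of all genes. Replicate 2 was the highest of its group in 8 members in UVABs and in 6 in STSABs, and the lowest in 1 and 2 members, including Gsr in both, while in LPS libraries it was the highest in 0 and the lowest in 2. Prdx5 in that library was at 1020 CPM in UVABs and 854 in STSABs, where the other libraries reached at most 730 and 689.

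Set against Con, 7 members rose and 2 fell in UVABs libraries, where 82.6% of all genes were called (40.2% higher and 42.4% lower), and 6 rose and 2 fell in STSABs libraries, where 82.6% were called (40% higher and 42.6% lower). Cat and Gpx1 were the members that fell in both. Prdx2 rose by 76.4% in UVABs libraries and 70.7% in STSABs libraries, Prdx6 by 87.6% and 81.7%, and Gsr by 84.7% and 89.8%. Libraries did not overlap with Con in 9 members in UVABs, against 77.7% of genes, and in 8 in STSABs, against 77.6%.

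Directions against Con depend on how libraries are scaled, since mean TMM factors were 0.928 in UVABs, 0.932 in STSABs, 0.902 in LPS and 1.51 in Con libraries. The median log2 fold change of all genes in LPS against Con was -0.03 with TMM, -0.01 with DESeq2 size factors, -0.31 with upper-quartile scaling and -0.78 with library totals alone, and called genes split into 4991 higher and 5361 lower with TMM, 3754 and 6665 with upper-quartile scaling, and 2365 and 8802 with totals. Sod2, Prdx1, Prdx5, Prdx6 and Gsr stayed higher and Cat, Gpx1 and Gpx4 lower under all 4. Sod1 was called lower with upper-quartile scaling (-0.30) and with totals (-0.76), and Prdx2 turned to -0.15 with totals. Against Con with upper-quartile scaling, Sod1 was at 0.02 in UVABs libraries and no longer called. With totals, Sod1 and Gpx4 turned to -0.42 and -0.50 in UVABs against Con and to -0.47 and -0.49 in STSABs against Con, and Prdx2 was not called in either (0.11 and 0.07) nor Prdx6 in STSABs (0.16). Relative to the median of all genes, with TMM, Sod2 stood at 3.83, Prdx1 at 2.25, Prdx2 at 0.63, Sod1 at 0.02, Gpx4 at -0.22 and Cat at -0.83.

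**Figure D4:**
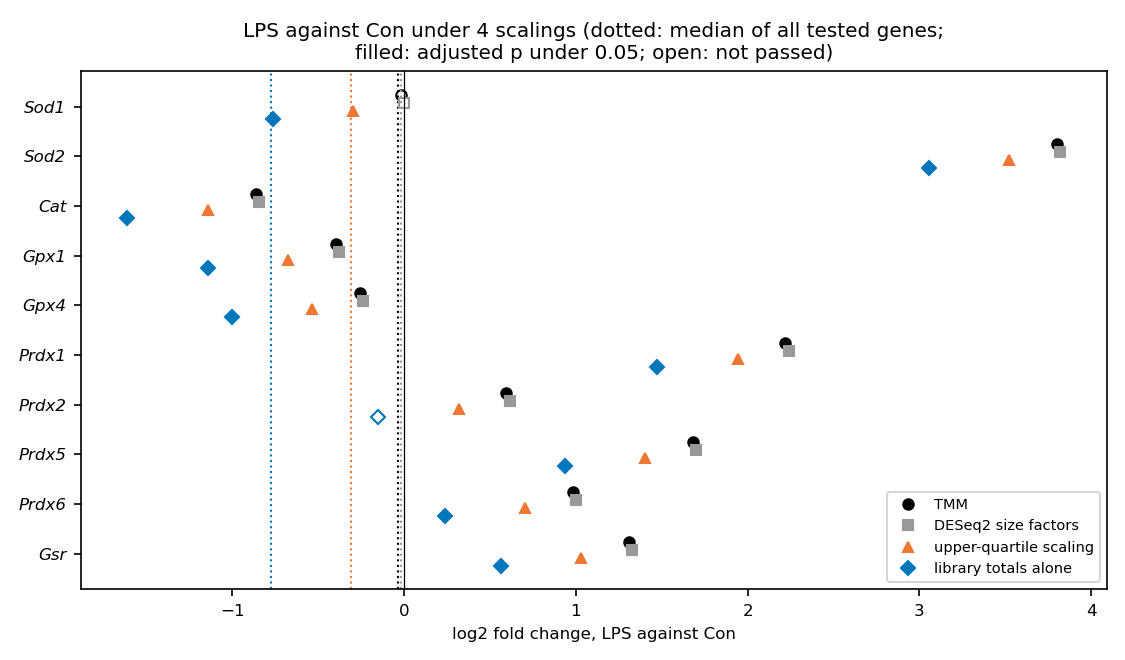
Log2 fold change of each member in LPS against Con under 4 scalings; dotted lines are the median of all tested genes under each scaling, and filled points have an adjusted p under 0.05. All members shift together with the median, by about as much as it moves from -0.03 with TMM to -0.78 with library totals alone, so that Sod1 and Prdx2 are the members whose side of 0 or call depends on the choice.

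The genes around these enzymes were read from lists by role, and for each list the counts of genes that rose and fell in LPS against Con are also given with library totals alone, where every value is lower. Of the 6 tested genes for other dismutases and peroxidases, 2 rose and 2 fell in LPS against Con (1 and 4 with totals), 3 rose and 2 fell in UVABs against LPS, and 2 rose and 2 fell in STSABs against LPS. Prdx3, the mitochondrial peroxiredoxin, fell in LPS against Con (-0.67 ± 0.06) and rose in UVABs (0.24 ± 0.06) and STSABs (0.23 ± 0.06) against LPS. Prdx4, the form of the endoplasmic reticulum, did the opposite, with 0.63 ± 0.09 in LPS against Con (-0.11 and not called with library totals alone), -0.28 ± 0.08 in UVABs and -0.33 ± 0.08 in STSABs against LPS. Sod3, the secreted dismutase, had 2.58 CPM in LPS libraries and 0.988 in Con libraries (1.38 ± 0.26).

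The thioredoxin system supplies electrons to most peroxiredoxins. Of its 14 tested genes 6 rose and 8 fell in LPS against Con (3 and 10 with totals), and against LPS 1 rose and 4 fell in UVABs and 1 rose and 5 fell in STSABs. Txn1, thioredoxin itself, averaged 549 CPM in UVABs libraries, 525 in STSABs libraries, 603 in LPS libraries and 134 in Con libraries. It rose in LPS against Con (2.17 ± 0.06) and fell in UVABs (-0.14 ± 0.05, lost with library totals alone) and STSABs (-0.20 ± 0.05) against LPS. Txnrd1, its reductase, averaged 237 CPM in UVABs libraries, 237 in STSABs libraries, 432 in LPS libraries and 118 in Con libraries. Its changes were 1.88 ± 0.09 in LPS against Con, -0.87 ± 0.07 in UVABs against LPS and -0.86 ± 0.07 in STSABs against LPS. Srxn1, the sulfiredoxin that repairs overoxidised peroxiredoxins, rose by 0.82 ± 0.10 in LPS libraries (0.08 and not called with library totals alone), and it fell against LPS (-1.02 ± 0.09 in UVABs and -1.10 ± 0.09 in STSABs). Srxn1 averaged 45.5 CPM in UVABs libraries, 43.2 in STSABs libraries, 92.4 in LPS libraries and 52.3 in Con libraries. Txnip, an inhibitor of thioredoxin, fell in LPS against Con (-1.29 ± 0.08) and did not pass in UVABs (-0.09 ± 0.07) or STSABs (-0.10 ± 0.07) against LPS.

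Glutathione synthesis and use had 14 tested genes, of which 6 rose and 6 fell in LPS against Con (5 and 9 with totals), and against LPS 3 rose and 8 fell in UVABs and 3 rose and 7 fell in STSABs. Slc7a11, the cystine importer that feeds glutathione synthesis, averaged 378 CPM in UVABs libraries, 371 in STSABs libraries, 613 in LPS libraries and 119 in Con libraries. That is a rise of 2.37 ± 0.09 in LPS against Con and a fall in UVABs (-0.70 ± 0.07) and STSABs (-0.73 ± 0.07) against LPS. Gstm1 and Gsto1, glutathione transferases, showed the same order, with 2.45 ± 0.12 and 1.27 ± 0.07 in LPS against Con, -0.88 ± 0.09 and -0.45 ± 0.06 in UVABs against LPS, and -0.93 ± 0.09 and -0.48 ± 0.06 in STSABs against LPS.

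Reduction of glutathione and thioredoxin needs NADPH. Of 10 genes listed for its supply 4 rose and 6 fell in LPS against Con (1 and 8 with totals), and 1 rose and 5 fell in each apoptotic body group against LPS. Idh1 and Idh2, which make NADPH from isocitrate, and Me2, a malic enzyme, fell in LPS against Con (-1.44 ± 0.07, -1.31 ± 0.07 and -1.04 ± 0.08). Whether Me2 makes NADPH in these cells was not tested. Against LPS, Idh1 fell in UVABs (-0.19 ± 0.06) and STSABs (-0.17 ± 0.06), both lost with library totals alone, while Idh2 (0.08 in UVABs and 0.13 in STSABs) and Me2 (0.14 in both) did not pass. Pgd, of the pentose phosphate pathway, and Nadk, which makes NADP, rose by 0.44 ± 0.06 and 0.68 ± 0.06 in LPS against Con with TMM, but were at -0.31 and -0.06 with library totals alone. Against LPS, Pgd was at -0.40 ± 0.05 in UVABs and -0.42 ± 0.05 in STSABs, and Nadk at -0.41 ± 0.05 and -0.36 ± 0.05, all called.

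Metal and selenium supply bears on the dismutases and on Gpx1 and Gpx4. Of its 12 genes 7 rose and 5 fell in LPS against Con (1 and 9 with totals), 5 rose and 4 fell in UVABs against LPS, and 4 rose and 4 fell in STSABs against LPS. Lrp8, a receptor for selenoprotein P, had 75.6 CPM in UVABs libraries, 80.7 in STSABs libraries, 33.4 in LPS libraries and 8.41 in Con libraries. It rose at each step, by 1.99 ± 0.08 in LPS against Con, 1.18 ± 0.06 in UVABs against LPS and 1.27 ± 0.06 in STSABs against LPS. Sephs2, which makes the selenium donor for selenocysteine, fell in LPS against Con (-1.15 ± 0.09) and rose against LPS in UVABs (0.32 ± 0.08) and STSABs (0.38 ± 0.08), the same directions as Gpx4. Pstk, which prepares the selenocysteine tRNA, fell in LPS against Con (-2.24 ± 0.18) at low levels (0.848 CPM in LPS libraries and 4.03 in Con libraries). Sepsecs, which completes selenocysteine on that tRNA, fell against LPS in UVABs (-0.75 ± 0.09) and STSABs (-0.80 ± 0.09). Its rise of 0.25 ± 0.09 in LPS against Con was -0.03 and not called with upper-quartile scaling, and -0.50 and called lower with library totals alone.

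NRF2 is the transcription factor that drives many antioxidant genes, and KEAP1 marks it for degradation. Of 11 genes for its control and other targets 8 rose and 3 fell in LPS against Con (5 and 3 with totals), 1 rose and 4 fell in UVABs against LPS, and 0 rose and 5 fell in STSABs against LPS. Keap1 averaged 183 CPM in UVABs libraries, 190 in STSABs libraries, 220 in LPS libraries and 44.7 in Con libraries. Its changes were 2.30 ± 0.06 in LPS against Con, -0.27 ± 0.05 in UVABs against LPS and -0.21 ± 0.05 in STSABs against LPS. Sqstm1, the autophagy receptor that can draw KEAP1 away from NRF2, changed by 1.5 ± 0.06, -0.45 ± 0.05 and -0.43 ± 0.05 in the same comparisons. Mafk, a small MAF partner, rose in LPS against Con (1.70 ± 0.07), while its call in STSABs against LPS (-0.13 ± 0.05) was lost with each of the other 3 scalings. Nfe2l2, which encodes NRF2, was at 0.78 in LPS against Con with TMM and at 0.03, not called, with library totals alone.

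On the side of oxidant production, 7 of 8 genes for sources of superoxide and nitric oxide rose and 1 fell in LPS against Con (4 and 2 with totals), and 4 rose and 2 fell in each apoptotic body group against LPS. Cybb, the catalytic subunit of the phagocyte oxidase, rose in LPS against Con (1.89 ± 0.10) and fell in UVABs (-0.42 ± 0.08) and STSABs (-0.43 ± 0.08) against LPS. Ncf1, a cytosolic subunit of the oxidase, rose in LPS against Con (0.90 ± 0.06) and rose again in UVABs (0.32 ± 0.05) and STSABs (0.35 ± 0.05) against LPS. Nos2, the inducible nitric oxide synthase, averaged 3056 CPM in UVABs libraries, 2962 in STSABs libraries, 2677 in LPS libraries and 0.843 in Con libraries, and neither apoptotic body group passed against LPS (0.19 ± 0.12 and 0.15 ± 0.12).

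Peroxisomes house catalase. Of 14 peroxisomal genes 3 rose and 8 fell in LPS against Con (2 and 12 with totals), and 5 rose and 2 fell in each apoptotic body group against LPS. Hsd17b4, an enzyme of peroxisomal fatty acid oxidation, fell in LPS against Con (-1.05 ± 0.07), and did not pass against LPS in UVABs (-0.04 ± 0.06) or STSABs (-0.09 ± 0.06). Acaa1a, a peroxisomal thiolase, rose at each step, by 1.21 ± 0.06 in LPS against Con, 0.67 ± 0.05 in UVABs against LPS and 0.60 ± 0.05 in STSABs against LPS. Pex2, of the import machinery, was at -0.00 ± 0.08 in LPS against Con and fell against LPS in UVABs (-0.44 ± 0.07) and STSABs (-0.47 ± 0.07).

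Across the 8 lists, no gene passed in UVABs against STSABs. The edgeR adjusted p-values behind the calls in these lists were adjusted over all genes tested, and the median log2 fold changes of the lists ran from -0.59 (NADPH supply) to 0.78 (sources of superoxide and nitric oxide) in LPS against Con, beside -0.03 for all genes.

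**Figure D5:**
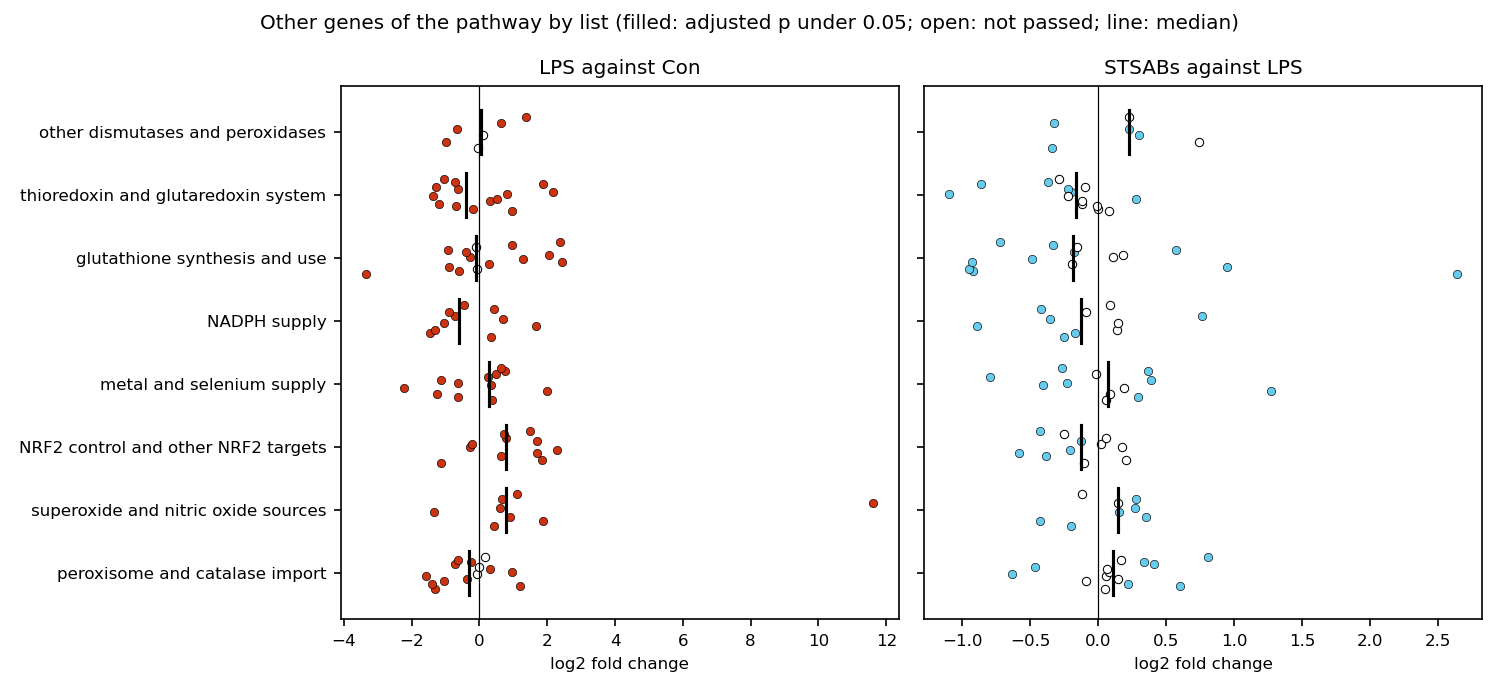
Log2 fold changes from edgeR of the tested genes of each list (rows), for LPS against Con on the left and STSABs against LPS on the right; filled points have an adjusted p under 0.05 and the line in each row is the list's median. Genes of most lists lie on both sides of 0 in LPS against Con, Nos2 is far to the right at 11.62, and in STSABs against LPS none of the NRF2 genes passed on the higher side.

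The genes whose pattern over the 18 libraries was most like that of Sod2, by Pearson correlation of log2 CPM among 7697 genes with a mean of at least 10 CPM, were Il1rn (r = 0.9992), Acod1 (0.9991) and Tmem106a (0.9988). Il1rn encodes the interleukin-1 receptor antagonist and averaged 2978 CPM in UVABs libraries, 2910 in STSABs libraries, 4012 in LPS libraries and 153 in Con libraries. Acod1, which makes itaconate, averaged 2534, 2450, 3920 and 28.8 CPM in the same order. For Cat they were Prkar2a (0.9831), Mmgt1 (0.9828) and Gars (0.9804), and Gars, the glycyl-tRNA synthetase, averaged 60.6, 62.9, 70.9 and 134 CPM. All points share the libraries and the difference between Con and the other groups, so these values are a description only.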

How the data were processed

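Bulk RNA of 18 libraries in 4 groups (UVABs, STSABs and LPS with 5 each, Con with 3) was analysed from a table of estimated counts per gene symbol that the authors deposited without normalization. Per the labels' protocols, libraries were made from poly(A) RNA with a kit that marks strand. HISAT2 and the build mm39 are named per the submitters' processing notes. The sources used here name no counting tool, strand setting or annotation. Of the values 6.35% were not whole, none of them among the 180 of the members, and all were rounded.

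Genes were filtered with filterByExpr, which kept 12465 genes with 99.97% of the counts, scaled by TMM, and tested with edgeR 4.0.16 (R 4.3.3), using the quasi-likelihood F-test in a fit of all 18 libraries with group means, and Benjamini-Hochberg adjustment at 0.05 in each of the 6 comparisons. The SE was approximated from the log2 fold change and the F statistic, as the ratio of the change to the root of F. The test was also run on simulated data with few changed genes, as many higher as lower. That setting cannot check it where most genes were called, as in LPS against Con. DESeq2 1.42.0, limma-voom (limma 3.58.1), other scalings and filters, fits of the groups compared, replicates 1 to 3 only, a replicate block and each library left out were the alternatives. Fits of replicates 4 and 5 only, with a term for them, and with a block in the apoptotic body groups alone were chosen after seeing the data.

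The members and the lists of other genes and of cell type markers were chosen with earlier results of these data known. All members are named, and from each list the 3 tested genes with the smallest adjusted p in LPS against Con and the 2 in STSABs against LPS. Nfe2l2, the genes that overlap members and the marker genes were named outside that rule, after their values were seen. A few genes picked by this rule are not reported here. Levels of genes were not compared per length. Coordinates are those of the RefSeq promoter table (GRCm38.p6), and coding sequences and overlaps come from GENCODE transcripts of GRCm38, while the counts rest on mm39, so both are descriptions of the genes and not of the regions counted.

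The replicate numbers were checked by correlating the deviations of same-numbered libraries from their group means over all genes. Between UVABs and STSABs all 5 pairs were over 0.1 (0.116 to 0.54, the highest for replicate 2). A pairing of these libraries rests on the data alone, since no label says what a number shares. Between other groups the pairs did not all pass. No 2 libraries of a group agreed within sampling noise. Over all genes the chi-square per gene was 18.7 to 31.6 in the 8 pairs of UVABs or STSABs libraries that hold replicate 2, against 2.44 to 8.58 in the other 12 pairs of these groups.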

Additional observations from a re-analysis of the deposited data

Results flagged for a closer look

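In groups of 5 libraries, the gap between the highest or lowest library and its nearest neighbour, over the group's range, was compared with Dixon's critical value of 0.71. Of 30 groups of member values tested, 6 passed it, where chance gives about 1 in 20. Over all genes 9.96% passed it in UVABs libraries, 8.54% in STSABs libraries and 6.21% in LPS libraries, and replicate 2 was the library apart in 77.9%, 73.1% and 7.75% of those genes in the same order. Members measured in 1 library are not independent of each other. In 5 of the 6 the library was replicate 2 of an apoptotic body group, standing above the others. In UVABs libraries it had 91.8 CPM of Sod1, with the others at 65.6 to 68.4, 218.6 CPM of Gpx4, with the others at 150 to 167, 1020 CPM of Prdx5, with the others at 696 to 730, and 233.6 CPM of Prdx6, with the others at 174 to 186. In STSABs libraries it had 854.3 CPM of Prdx5, with the others at 677 to 689. The remaining library was LPS replicate 4, with 2399 CPM of Prdx1 where the other LPS libraries had 2736 to 2761.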

How the results depend on the processing

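Of 760 member values in 14 settings other than leaving out a library, 727 kept their side of the threshold (with their direction, where called), 13 lost a call, 15 gained one and 5 that were called in either setting changed sign. Another 13 values called in neither setting changed sign and are among the 727, with upper-quartile scaling Sod1 (-0.04) and Gpx4 (-0.06) in STSABs against Con and Gpx4 in UVABs against Con (-0.06). The 5 sign changes with a call came with library totals alone: Prdx2 in LPS against Con (-0.15), Sod1 in UVABs against Con (-0.42) and in STSABs against Con (-0.47), and Gpx4 in UVABs against Con (-0.50) and in STSABs against Con (-0.49). There the number of members lower than Con was 4 in UVABs and 4 in STSABs, with 2 each under TMM, and the median of all genes moved with it. Leaving out each library in turn gave 1080 values, of which 1047 kept their side of the threshold, 23 lost a call and 10 gained one. No called value changed sign, and 17 values called in neither fit did, 15 of them in UVABs against STSABs. The number of members higher in STSABs than in LPS then ranged from 1 to 3, with 1 on leaving out LPS replicate 2, 4 or 5 or STSABs replicate 2. The cause was not tested.

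Same-numbered libraries correlated over 0.1 in 1 of 3 pairs of LPS and Con (0.019 to 0.113). Apart from UVABs and STSABs, no pair between the other groups did. Yet 3 of 3 LPS libraries correlated best with the Con library of their own number, as did 4 of 5 libraries in UVABs against STSABs. The data do not settle whether the numbers pair LPS and Con libraries, and no label says what a number shares. With the replicate block, Gpx4 lost its call in LPS against Con (-0.16, edgeR adjusted p = 0.0795), and in STSABs against Con Sod1 (0.28) and Gpx4 (0.29) and in UVABs against Con Gpx4 (0.30) gained one. The block changed no other call, and UVABs against STSABs had 0 members called with it in a fit of all libraries and in a fit of the apoptotic body groups alone. Depth limits the members little, since the lowest member count of 820 has a counting error of 3.49%, while Sod1 in UVABs replicate 2 was at 91.8 CPM and at most 68.4 in the other UVABs libraries.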
